A study of Homo sapiens with 6 samples.

Results

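Intestinal epithelial cells are recognised by a small set of transcripts, and 9 of them were looked for in RNA-seq counts from 6 libraries labelled RKO, a human colorectal carcinoma line. The genes were chosen by name (CDX1, CDX2, VIL1, KRT20, MUC2, CDH17, GPA33, SLC26A3 and LGALS4), and 8 of the 9 were matched among the 37923 genes of the count table. CDX2 was not analysed here. The study compared 3 libraries named Control with 3 named ENZ. The series design says that ENZ cells were given compound A3, a degrader of the histone demethylase LSD1, and that RNA was taken after 48 h. It calls the libraries biological replicates. The labels name 1 cell line, RKO, for both groups and give no dose, no vehicle for the Control group and no meaning of the name ENZ. The sources used here do not say how the replicates were separated, so a p-value reflects only the scatter among these libraries, which may be technical.

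The intestinal lineage is set up by the caudal-type homeobox factors CDX1 and CDX2, which work with HNF4, HNF1 and GATA factors on the genes of mature gut cells. Absorptive cells build a brush border around the actin-bundling protein villin (VIL1), carry the chloride and bicarbonate exchanger SLC26A3 in the apical membrane and make keratin 20 (KRT20) as they mature. Goblet cells secrete the gel-forming mucin MUC2. Cadherin 17 (CDH17), the A33 antigen (GPA33) and galectin-4 (LGALS4) are adhesion, surface and lectin proteins used in pathology to mark tissue of gut origin. RKO is known as a poorly differentiated line in which many of these genes are weakly expressed, so a low level does not by itself go against the label. Other transcripts do, by their level in FPKM (fragments per kilobase of gene length and per 1000000 fragments). FOLH1, the gene of prostate-specific membrane antigen, had 117 ± 0.692 FPKM in Control. Of 19 listed prostate genes 9 had a mean of at least 10 FPKM, and 8 had a mean under 1 FPKM. The libraries are therefore called by their labels, and their values are given with the label check.

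Upstream sequences of the genes were matched by symbol in RefSeq (GRCh38.p14), where 5 of the 8 members had an entry. Shown here are SLC26A3, the member that fell, and MUC2, the member whose upstream window holds a CDX element. Each line gives the 250 bases before the annotated start, 5′ to 3′ on the strand of the gene, with motif matches in capitals. The windows lie at chr7:107803224-107803473 (minus strand) for SLC26A3 and chr11:1074624-1074873 (plus strand) for MUC2.
SLC26A3: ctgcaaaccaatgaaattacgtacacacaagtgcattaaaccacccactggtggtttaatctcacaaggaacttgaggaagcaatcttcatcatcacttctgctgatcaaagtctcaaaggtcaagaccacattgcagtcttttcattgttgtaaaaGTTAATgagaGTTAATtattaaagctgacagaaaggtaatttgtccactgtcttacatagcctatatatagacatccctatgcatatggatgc
MUC2: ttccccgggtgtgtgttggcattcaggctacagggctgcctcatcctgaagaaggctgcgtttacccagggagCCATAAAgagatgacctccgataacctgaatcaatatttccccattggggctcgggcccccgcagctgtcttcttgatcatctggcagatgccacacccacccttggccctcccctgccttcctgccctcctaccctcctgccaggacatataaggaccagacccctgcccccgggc
The motifs searched on both strands were TTTATNG for CDX factors, CAAAGTCCA for HNF4, GTTAAT as the core of HNF1 sites and TATAAA for a TATA box. The first can overlap the last on the opposite strand, and the HNF1 core was added after the SLC26A3 sequence had been read. In SLC26A3 the capitals mark 2 HNF1 cores, which begin 93 and 83 bases before the start, and in MUC2 a CDX element on the opposite strand that begins 177 bases before it. Among 35116 RefSeq windows of the same length, 8.93% held the CDX element, 0.325% the HNF4 element, 6.23% the HNF1 core and 10.7% the TATA box. KRT20 had 1 HNF1 core, and the windows of LGALS4 and GPA33 held none of these letters. A match describes the letters and is not a measured binding site.

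In these libraries villin was the only lineage marker with a mean of at least 1 FPKM, the scale on which levels of different genes can be set side by side. VIL1 had 7.09 ± 1.44 FPKM (SD, n = 6) and stood above 83.5% of all genes in the table. LGALS4 followed with 0.938 ± 0.0538 FPKM, SLC26A3 with 0.347 ± 0.252 and CDH17 with 0.0415 ± 0.0131. The per-library ranges of VIL1, LGALS4, SLC26A3 and CDH17 did not overlap in that order. Below them CDH17 and MUC2 (0.0138 ± 0.00860 FPKM), MUC2 and GPA33 (0.00611 ± 0.0105), GPA33 and CDX1 (0.00351 ± 0.00860), and CDX1 and KRT20 (0.00321 ± 0.00785) overlapped, so these 5 genes have no firm order. The summed level of the 8 genes was 7.00 to 7.66 FPKM in the Control libraries and 9.41 to 9.89 in the ENZ libraries, most of it from VIL1.

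Of the transcription factor CDX1, 1 count was found in the 168247561 counts of the 6 libraries together, in ENZ replicate 2. KRT20 likewise had 1 count, in Control replicate 2. For each of the pair the exact Poisson interval (95%) allows no more than 0.0331 CPM (counts per 1000000 counts of the library) over all libraries. A count of 0 in a single library allows up to 3 counts, which is 0.0999 to 0.112 CPM. These limits, like all intervals on counts here, cover counting error only. GPA33 had 0 counts in each Control library and 1, 2 and 0 counts in ENZ replicates 1 to 3, at or under the 3-count limit in both groups, so no fold was formed.

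MUC2 had 0, 9 and 5 counts in the Control libraries and 4, 6 and 5 in the ENZ libraries. The groups overlapped, and the ratio of pooled CPM, ENZ over Control, was 1.02 with an exact interval of 0.459 to 2.28. CDH17 had 2, 5 and 4 counts in Control and 5, 6 and 5 in ENZ. Its pooled ratio was 1.39 (0.604 to 3.30), again with overlapping groups. Both intervals include a rise by a factor of 2, and that of MUC2 also a fall by a factor of 2. These changes are therefore not excluded. These 5 genes did not pass the filter on low counts, and when the filter was dropped edgeR's quasi-likelihood test gave them adjusted p-values from 0.342 to 0.989.

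**Figure D1:**
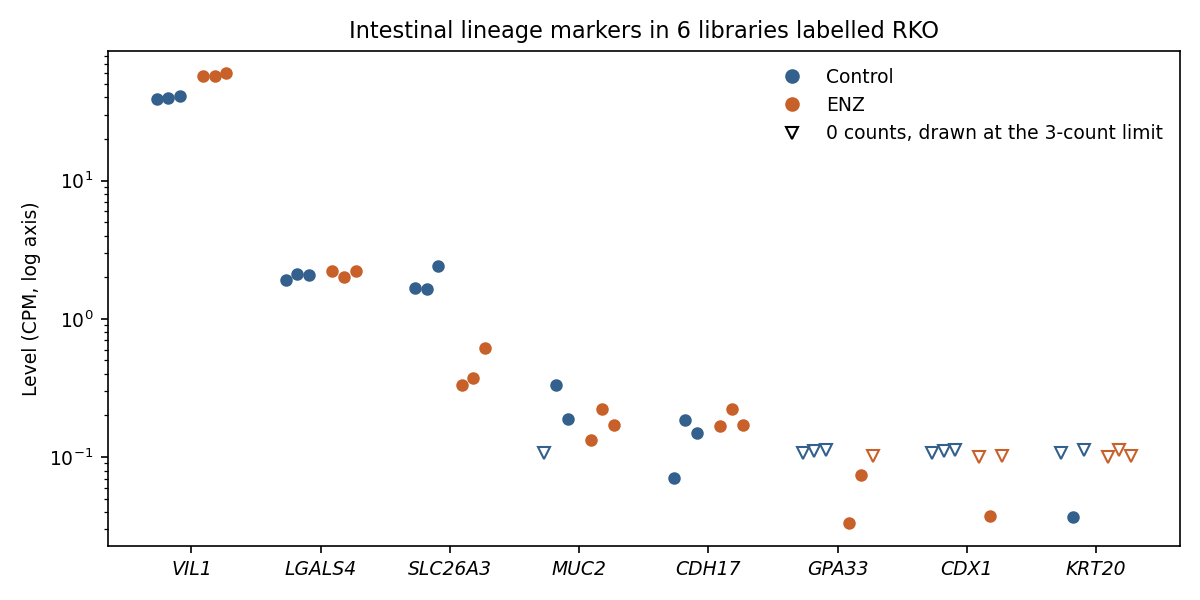
Level of each of the 8 lineage markers (x axis) in CPM on a log axis (y axis), with 1 point per library, blue for Control and orange for ENZ. Open triangles are libraries with 0 counts, drawn at the limit of 3 counts. VIL1 lies between 38.8 and 59.6 CPM in all libraries, LGALS4 near 2 CPM, SLC26A3 separates by group, and GPA33, CDX1 and KRT20 are mostly triangles.

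The question of the comparison was which of these genes differ between the libraries labelled ENZ and those labelled Control. VIL1 rose 1.49-fold, SLC26A3 fell 4.18-fold, and LGALS4 did not pass the test, so the 3 lineage markers that could be tested did not move together. The background was high: of 18581 tested genes 39.8% were called at an adjusted p under 0.05, 20.5% higher and 19.3% lower in ENZ. With GC and length offsets 61.8% of the calls were higher, and with library totals alone 43.0%, against 51.6% in the fit reported here. Against that background 2 calls among 3 tested markers, 1 in each direction, are no feature of the group. A call with an absolute log2 fold change over 1, the limit that the series design states, was made for 2.98% of tested genes, and one with a log2 fold change under -1, as for SLC26A3, for 2.24%. CPM values of the groups did not overlap for 49.2% of tested genes, and this was also so for VIL1 and SLC26A3.

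VIL1 (ENSG00000127831; GRCh38 chromosome 2, 218419121 to 218453295, plus strand), the actin bundler of the microvillus core, had 38.8, 39.6 and 41.1 CPM in Control replicates 1 to 3 and 56.8, 57.0 and 59.6 CPM in ENZ replicates 1 to 3. Every ENZ library was above every Control library, and the spread within a group was small beside the gap. The means were 39.9 ± 1.18 and 57.8 ± 1.58 CPM (SD, n = 3 each). The log2 fold change was 0.57 ± 0.05 SE (95% confidence interval 0.46 to 0.68; adjusted p = 1.28e-08, edgeR quasi-likelihood F test). VIL1 was counted from 1077 to 1753 fragments per library, the only member with more than 100 in each. The 3′ end of VIL1 overlaps USP37, a ubiquitin protease gene on the opposite strand, and the library kit does not mark strand. USP37 went from 47.6 ± 2.76 to 40.1 ± 2.17 CPM, with a log2 fold change of -0.21 ± 0.06 that was opposite in sign to that of VIL1. With GC and length offsets USP37 had -0.04 and was no longer called (edgeR's test, adjusted p = 0.493). CTDSP1, a phosphatase gene 13.2 kb upstream of VIL1 on the same strand, rose from 89.7 ± 3.06 to 121 ± 4.13 CPM (log2 fold change 0.47 ± 0.04). On the other side CNOT9, a subunit of the deadenylase complex 115 kb away, had 156 ± 2.04 and 148 ± 4.81 CPM and was not called. The sources used here do not say how fragments in the shared stretch were counted.

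SLC26A3 (ENSG00000091138; GRCh38 chromosome 7, 107765467 to 107803225, minus strand), which absorbs chloride in exchange for bicarbonate in the colon, had 1.67, 1.66 and 2.40 CPM in Control and 0.333, 0.374 and 0.612 CPM in ENZ. These values rest on 47, 45 and 64 counts in Control and 10, 10 and 18 in ENZ. The highest ENZ library stayed below the lowest Control library. The gene passed the filter on low counts through its Control libraries. The means were 1.91 ± 0.425 and 0.440 ± 0.151 CPM (SD, n = 3 each), a log2 fold change of -2.06 ± 0.28 SE (interval -2.65 to -1.48; adjusted p = 5.37e-06 by the same edgeR test). The call was kept without any 1 library, with log2 fold changes from -2.39 to -1.87. On log2(FPKM + 1) values without a filter it was -0.47, since the pseudocount is larger than the level, and the call held (adjusted p = 0.0200 by limma). With a mean under 1 FPKM the gene did not enter the other FPKM fits.

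The gene next to SLC26A3, CBLL1, a RING finger protein of the RNA methylation machinery, lies 3.80 kb beyond its 3′ end on the opposite strand, so that both genes point at each other. CBLL1 fell from 117 ± 2.63 to 68.1 ± 0.991 CPM (log2 fold change -0.75 ± 0.04, adjusted p = 5.36e-12 in edgeR's test). It is the more abundant of the pair by CPM, and both fell, SLC26A3 by more. Whether fragments from CBLL1 reach SLC26A3 was not tested. On the other side, 87.9 kb away, DLD, a subunit of mitochondrial dehydrogenases, had 263 ± 3.56 and 249 ± 14.7 CPM and did not pass the test (adjusted p = 0.350 in edgeR's test).

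LGALS4 (ENSG00000171747; GRCh38 chromosome 19, 38801671 to 38812945, minus strand), a galactoside-binding lectin of the gut surface, had 1.91, 2.10 and 2.06 CPM in Control and 2.23, 2.02 and 2.21 CPM in ENZ, from 54 to 67 counts per library. The groups overlapped. The means were 2.02 ± 0.0970 and 2.15 ± 0.118 CPM (SD, n = 3 each), and the log2 fold change was 0.13 with a 95% confidence interval of -0.23 to 0.48 (adjusted p = 0.592 in edgeR's test). The interval includes a fall as well as a rise, and does not show that the level was the same.

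**Figure D2:**
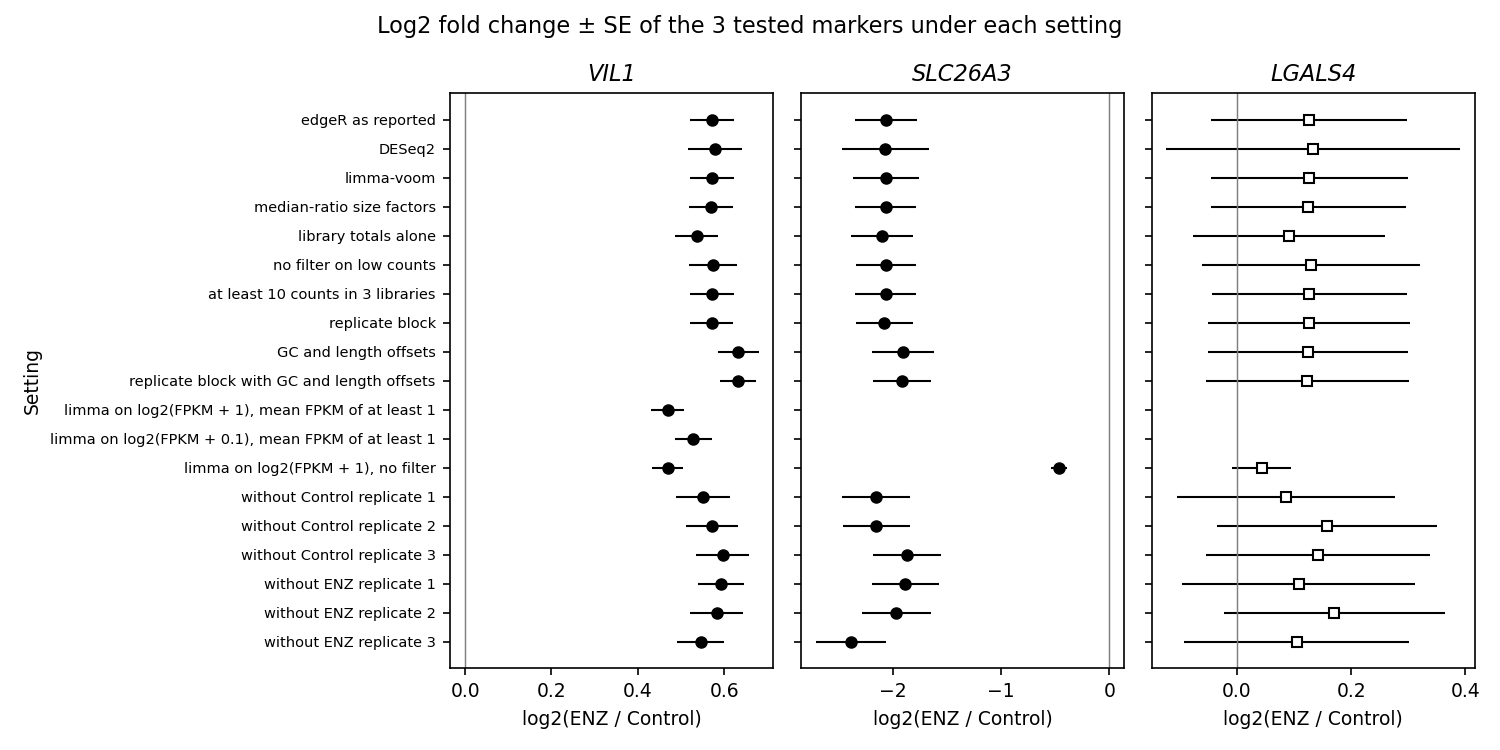
Log2 fold change, ENZ over Control, with its SE (x axis) for the 3 tested markers under the reported fit and each alternative (y axis); filled points have an adjusted p under 0.05. VIL1 stays between 0.47 and 0.63, SLC26A3 stays negative, between -2.39 and -0.47, and LGALS4 is open throughout.

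Fold changes in these libraries depended on transcript GC content, with a median of -0.18 under 40% GC and 0.14 over 60%. The longest transcripts of VIL1 and SLC26A3 are 44.4% and 41.0% GC and that of LGALS4 is 56.1%. With offsets for GC and length VIL1 had a log2 fold change of 0.63, SLC26A3 of -1.91 and LGALS4 of 0.12, and no call changed.

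Genes whose profiles over the 6 libraries were most like those of the called members were sought among genes with at least 5 CPM, by Pearson's r of log2 CPM. For VIL1 these were NEU1, a lysosomal sialidase (r = 0.9997), and PXYLP1, a phosphatase of proteoglycan synthesis (r = 0.999). For SLC26A3 they were TMED2, a cargo receptor of the early secretory pathway (r = 0.998), and the zinc-finger gene ZNF239 (r = 0.997). A correlation over 0.95 was found with 1409 of 11715 genes for VIL1 and with 371 of 11716 for SLC26A3. Such an r over 6 libraries therefore does not single out a gene, and its cause was not tested. TMED2 itself changed little, with a log2 fold change of -0.11.

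The other genes of the intestinal programme were taken from 5 lists, which held 97 genes of the table beside the members. A mean of at least 1 FPKM was reached by 31 of the 97, and of 52 tested 13 rose and 15 fell, with a median log2 fold change of -0.05 against -0.01 over all tested genes. The share called, 28 of 52, stands beside the background of 39.8%. DESeq2 called 13 higher and 8 lower of 56, where it called 29.5% of all 19599 genes that it tested.

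Among 19 intestinal transcription factors 11 were tested. Beside 20.5% called higher and 19.3% lower over all tested genes, 1 of these rose and 5 fell, with a median of -0.18. The 1 that rose was SOX9, a factor of crypt progenitors, by 0.28 on the log2 scale; it is named here after its value was seen. HNF4A, the nuclear receptor that works with CDX factors on enterocyte genes, had 0.110 CPM in Control and 0.104 in ENZ and was too low to test. Its relative HNF4G fell from 3.33 ± 0.213 to 2.27 ± 0.271 FPKM (log2 fold change -0.52). GATA6, a zinc-finger factor of gut endoderm, had 1.88 ± 0.103 and 1.59 ± 0.194 FPKM and did not pass the test (adjusted p = 0.137 in edgeR's test), but had a called log2 fold change of -0.28 with GC and length offsets. The crypt factor KLF5 fell by 0.60 from 16.3 ± 0.431 to 10.5 ± 0.358 FPKM, and ATOH1, the switch to secretory fate, fell by 3.12, from 0.952 ± 0.0557 to 0.104 ± 0.0182 FPKM. ATOH1 passed the low-count filter through its Control libraries, with 63, 54 and 56 counts there against 8, 5 and 7 in ENZ. SPDEF, a goblet factor that is also made in prostate epithelium, was the highest of the list at 60.5 ± 0.687 and 56.9 ± 2.75 FPKM, and KLF4 had 19.1 ± 0.251 and 18.3 ± 0.480; neither was called, though SPDEF had a called log2 fold change of -0.18 with GC and length offsets.

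The brush border list had 14 tested genes of 19, with 4 rises, 3 falls and a median of -0.07. Over all tested genes 20.5% were called higher and 19.3% lower. A mean of at least 1 FPKM was reached by 10 of the 19. EZR, which ties actin to the membrane, rose from 56.6 ± 0.507 to 61.6 ± 2.19 FPKM (0.16 on the log2 scale), EPS8L2 by 0.48, the myosin MYO1D by 0.33 and the motor MYO5B by 0.21. The 4 that rose are made in many epithelia. The 3 that fell, named after their values were seen, were the brush border myosin MYO1A by 0.44, the microvillar protocadherin CDHR5 by 0.30 and the actin regulator BAIAP2L2 by 0.21. The call of CDHR5 ended in 10 of 18 settings, and that of BAIAP2L2 ended in DESeq2 and without Control replicate 1 (adjusted p = 0.0773 in DESeq2 and 0.0980 in edgeR's test). VIL1 had 0.57 on the same scale.

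Of 22 absorptive genes 20 had a mean under 1 FPKM. Of 7 tested 0 rose and 3 fell, where 20.5% of all tested genes were called higher and 19.3% lower. The median of the list was -0.27. SLC26A2, a sulphate transporter of the same family as SLC26A3, fell from 4.99 ± 0.264 to 3.50 ± 0.376 FPKM, a log2 fold change of -0.48 ± 0.06. The small colon protein gene PHGR1 fell by 1.34 from 0.803 ± 0.290 FPKM, a call that ended without Control replicate 2 (adjusted p = 0.0795 in edgeR's test), in DESeq2 (adjusted p = 0.0541) and on unfiltered log2(FPKM + 1) values (adjusted p = 0.0949 by limma). PHGR1 also passed the low-count filter through its Control libraries. CEACAM1 fell by 0.65, with an adjusted p of 0.0359 in edgeR's test, and that call ended in 9 of 16 settings. CEACAM6, an adhesion molecule of the colon surface, had 1.81 ± 0.177 and 1.84 ± 0.0570 FPKM. With DESeq2 1 of the list was called.

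Goblet genes other than MUC2 had 3 rises and 2 falls among 10 tested of 20, with a median of 0.04. The share called over all tested genes was 39.8%, with 20.5% higher and 19.3% lower. AGR2, a disulphide isomerase needed for MUC2 folding, was abundant and fell from 93.6 ± 0.657 to 56.6 ± 1.11 FPKM (-0.69 on the log2 scale). AGR3 fell by 1.55 and SYTL2, a vesicle tethering protein, rose by 0.58. KLK1 had 32.7 ± 3.03 and 30.6 ± 0.561 FPKM and was not called. MUC5AC, a gastric mucin gene 47.4 kb from MUC2 that is also in the gastric list, had 7.84 ± 0.300 and 6.43 ± 1.06 CPM where MUC2 had 0.173 ± 0.166 and 0.176 ± 0.0458. Its log2 fold change of -0.25 was not called (adjusted p = 0.0833 in edgeR's test) and was called without ENZ replicate 2 (-0.37) and with GC and length offsets (-0.36).

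Surface and adhesion genes other than the members had 5 rises and 2 falls among 10 tested of 17, with a median of 0.22. Over all tested genes 20.5% were called higher and 19.3% lower. The membrane mucin MUC13 rose from 20.8 ± 0.913 to 26.1 ± 0.507 FPKM, the tetraspanins TSPAN1 and TSPAN8 by 0.29 and 0.19 on the log2 scale, and the crypt receptor EPHB2 by 0.77. The 2 that fell, named after their values were seen, were LGALS3, a galectin as LGALS4 is, from 0.506 ± 0.190 to 0.223 ± 0.116 FPKM (log2 fold change -1.13), and the membrane mucin MUC4, from 0.0759 ± 0.00462 to 0.0398 ± 0.0156 FPKM (-0.88). LGALS3 passed the low-count filter through its Control libraries, and its call ended in DESeq2, on unfiltered log2(FPKM + 1) values, without Control replicate 1 (adjusted p = 0.141 in edgeR's test) and without ENZ replicate 2 (adjusted p = 0.0775). The call of MUC4 ended in DESeq2, on unfiltered log2(FPKM + 1) values and without ENZ replicate 2 (adjusted p = 0.0551 in edgeR's test). In FPKM, MUC13 and TSPAN8 (36.3 ± 1.89 in Control and 40.5 ± 1.79 in ENZ) were many times above the lineage markers CDH17 and GPA33.

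**Figure D3:**
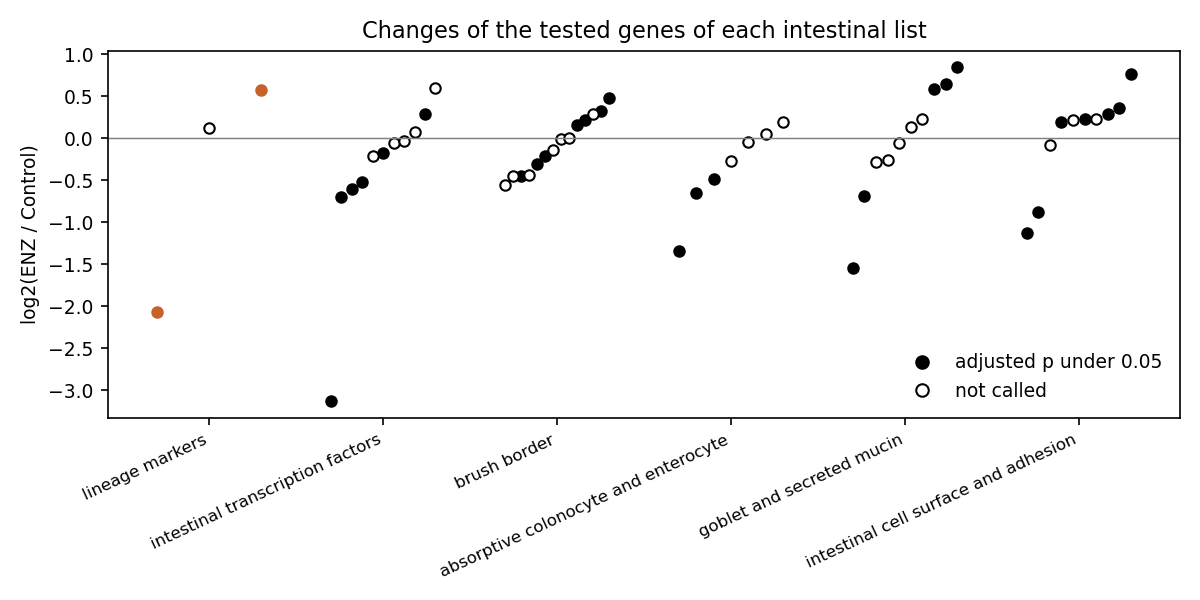
Log2 fold change, ENZ over Control (y axis), of each tested gene in the lineage markers and the 5 intestinal lists (x axis); filled points were called at an adjusted p under 0.05 and open points were not. The markers lie at -2.06, 0.13 and 0.57. The lists hold calls on both sides of 0 apart from the absorptive list, whose 3 calls among 7 tested are all falls. Over all tested genes 39.8% were called, and DESeq2 called 1 gene of the absorptive list.

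As a check of the label, the same libraries were read for genes of other epithelia. General epithelial genes were high, with 17 of 20 at 1 FPKM or more and a sum of 656 to 671 FPKM in Control and 691 to 725 in ENZ. CLDN7, KRT8 and KRT18 led with 106 ± 3.54, 105 ± 2.48 and 76.6 ± 1.83 FPKM in Control. Of 18 tested 8 rose and 3 fell, where 20.5% of all tested genes were called higher and 19.3% lower. The tight junction genes CLDN7 and CLDN3 and the epithelial factor ELF3 rose by 0.47, 0.50 and 1.02 on the log2 scale. The keratins KRT8 and KRT18 fell by 0.28 and 0.17. Of the lineage markers VIL1 alone had a mean of at least 1 FPKM over the same libraries, though LGALS4 had 1.00 FPKM in ENZ replicate 1.

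Prostate luminal genes had 11 of 19 at 1 FPKM or more and 9 at 10 FPKM or more, with a sum of 500.2 to 514 FPKM in Control and 421 to 429 in ENZ. STEAP1, a surface antigen of the prostate, had 142 ± 4.95 FPKM in Control and 59.6 ± 4.20 in ENZ, FOLH1 had 117 ± 0.692 and 161 ± 1.07, and the kallikrein KLK4 had 76.3 ± 1.31 and 56.5 ± 1.18. Of 18 tested 4 rose and 10 fell, beside 20.5% called higher and 19.3% lower over all tested genes. SLC45A3 fell by 1.69 and STEAP2 by 1.03 on the log2 scale. None of the 19 was at 0 in all libraries, which was also so for every other list except the absorptive one. Gastric genes had 0 of 11 at 1 FPKM or more, and MUC5AC and TFF2 were under 0.6 FPKM in both groups. PGC, a pepsinogen, had 0.588 ± 0.110 FPKM in Control and 0.0443 ± 0.0384 in ENZ and was called lower. It passed the low-count filter through its Control libraries, with 40, 32 and 26 counts there against 4, 0 and 4 in ENZ. Hepatocyte genes were under 1 FPKM in 10 of 11, with APOA2 and ASGR1 at or below 0.0776 FPKM in both groups, while ALB had 17.6 ± 0.888 and 20.9 ± 0.689.

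Of 10 genes listed for RKO and other colorectal lines 5 had a mean of at least 1 FPKM, and of 8 tested 1 rose and 1 fell. The share called over all tested genes was 39.8%. The calcium-binding protein gene S100A6 rose from 53.8 ± 1.76 to 63.7 ± 4.24 FPKM, and the hyaluronan receptor CD44 fell by 0.40 on the log2 scale. ZNRF3, a WNT feedback gene, had 5.11 ± 0.115 and 4.97 ± 0.319 FPKM, and the intermediate filament gene VIM had 3.68 ± 0.211 and 3.70 ± 0.0489; neither was called. The levels of the prostate genes go against the RKO label. All changes above are differences between libraries labelled ENZ and Control.

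**Figure D4:**
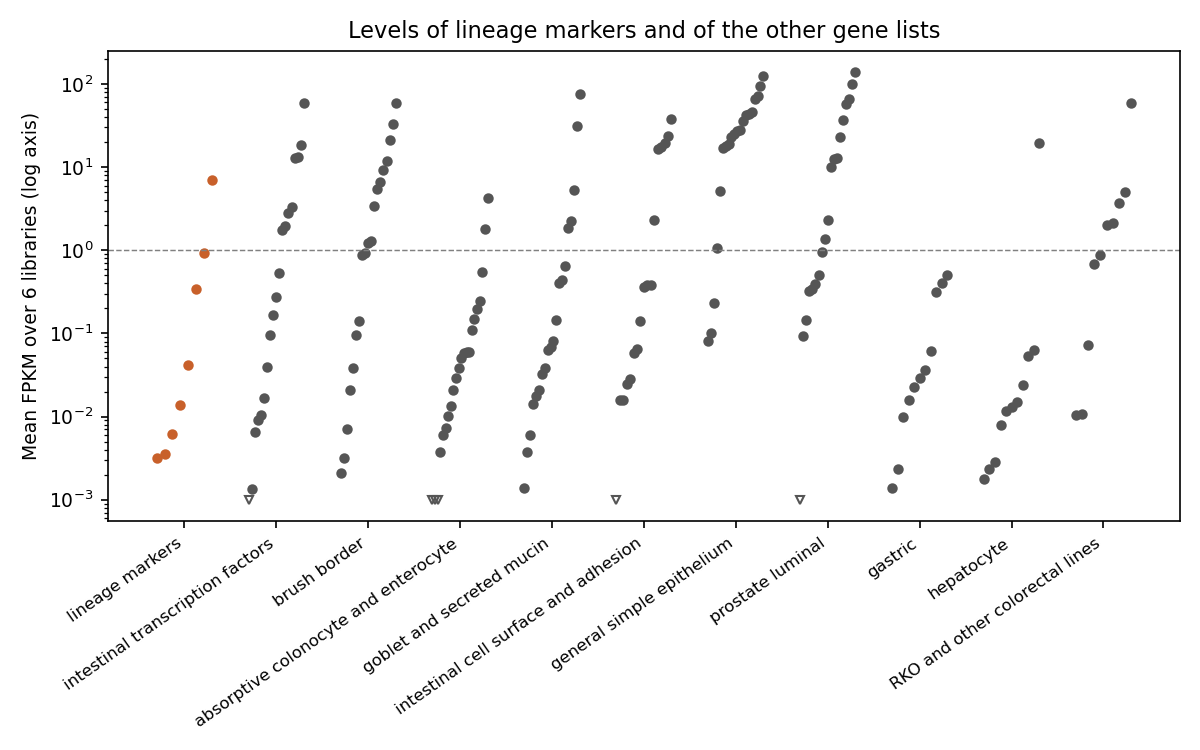
Mean FPKM over the 6 libraries (y axis, log scale) of every gene in the lineage markers (orange) and the other lists (grey), ordered by level within a list; open triangles are means under 0.001 FPKM and the dashed line is 1 FPKM. Of the lineage markers 1 lies above the line, against 17 of 20 epithelial and 11 of 19 prostate luminal genes. Brush border has 10 of 19 above it and intestinal transcription factors 8 of 19. The surface, goblet and absorptive lists have 6 of 17, 5 of 20 and 2 of 22.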

How the data were processed

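Polyadenylated RNA was made into libraries with a kit that keeps no record of strand, per the labels' protocols. Per the submitters' processing notes, the tools were HISAT2 (2.0.5), HTSeq (0.6.1) and DESeq2 (1.20.0), with GRCh38 (hg38) as the build; no source used here names the annotation release, strand setting or filters. Counts per gene and FPKM values were deposited by the authors. The deposited FPKM values equal the counts divided by 1 length per gene and the library total. Libraries held 26691289 to 30025543 counts.

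Groups came from sample titles. ENZ and Control were compared in R 4.3.3 with edgeR 4.0.16 (TMM, default expression filter, robust quasi-likelihood F test) and Benjamini-Hochberg adjustment over 18581 genes. SE was derived from the log2 fold change and its F value. Positions and GC content are from GENCODE 44 (37817 identifiers matched). Alternatives were DESeq2 1.42.0, limma 3.58.1 (voom, and log2(FPKM + 1) or log2(FPKM + 0.1)), other scalings and filters, a replicate block, GC and length offsets, and each library left out. The tests were tested on simulated data.

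The members and lists were chosen with earlier results of these data known. From each list the 3 called genes with the smallest p-values and the 3 with the highest FPKM are named, with HNF4A and GATA6, the genes that flank VIL1 and SLC26A3, and a few genes marked in the text. Some listed genes are not reported here, and the counts leave them out. Same-numbered libraries did not deviate together.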

Additional observations from a re-analysis of the deposited data

How the results depend on the processing

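VIL1 and SLC26A3 kept their direction and call in every alternative in which they were tested (18 and 16), and LGALS4 was not called in any of its 16. The count of lineage markers called was 2 in 16 of 18 alternatives and 1 on log2(FPKM + 1) or log2(FPKM + 0.1) values after a filter at 1 FPKM, where only VIL1 was tested. Genes called of all tested were 3728 and intestinal list genes 17 on unfiltered log2(FPKM + 1) values, against 7393 and 28. Leaving out 1 library gave 2 lineage markers in each case, 5844 to 8258 genes of all tested and 23 to 31 list genes. The replicate numbers are not shown to pair the libraries (correlations of deviations from -0.046 to 0.018, with 1 of 6 libraries correlating best with its own number), and with the replicate block 7466 genes, 28 list genes and 2 lineage markers were called. List counts that moved by over 1.5 times were 3 against 6 transcription factors on filtered FPKM values, 1 against 3 absorptive genes in DESeq2 and on each FPKM setting, and 4 (filtered) and 2 (unfiltered) against 7 surface genes on FPKM values. ZNRF3 (-0.01), never called, was 0.0023 in DESeq2. Without 1 library log2 fold changes ran from -0.0056 to 0.14 for CEACAM6, from -0.11 to 0.022 for KLK1 and from -0.057 to 0.032 for ZNRF3. KLK1 was called (-0.10) with the block and GC and length offsets together. Calls of EPHB2, EZR, TSPAN8, PHGR1, CEACAM1, CDHR5, LGALS3, MUC4 and USP37 ended on unfiltered log2(FPKM + 1) values. The causes were not tested. Depth limits MUC2, CDH17, GPA33, CDX1 and KRT20, which had 1 to 29 counts over all libraries.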
